A study of Homo sapiens with 11 samples.

Results

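MARCKSL1, TMEM50A, ZNF598, SKIC3, ATAD2, PRELID3B and VRK1 are 7 human genes brought together because a test called 1 exon probe set in each as shifted against its gene when Tat-SF1 was depleted. Their profiles show a single shifted probe set clearly in some of them and not in VRK1. In SKIC3 and PRELID3B another probe set comes close to the shift, and in ZNF598 the signal of the shifted one is low. The 7 genes were chosen by the difference in splicing index (explained below) between knockdown and control arrays, among 14496 genes measured. In each of them 1 probe set passed a test of knockdown against control arrays over 220978 probe sets, and no other gene held one. These differences are therefore given below as a description. The genes carry 179 probe sets that list them as their only gene, of which 156 passed a filter on dim signal. SKIC3 was listed as TTC37 and PRELID3B as SLMO2 in the probe table.

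The cells were T-REx-293, made from HEK293 (a line of human embryonic kidney cells) so that tetracycline switches on a plasmid's gene. All of them stably carried a plasmid encoding green fluorescent protein (GFP), controls included, and all received 2.5 µg/mL tetracycline for 72 h. The controls expressed an empty vector (2 arrays) or a short hairpin RNA (shRNA) against GFP (3 arrays), and the knockdown cells expressed shRNA A or shRNA B against Tat-SF1 (3 arrays each). The series design calls the 3 samples of a construct biological replicates, and it states that 1 array of the empty vector, replicate 3, was dropped at quality control. Total RNA was hybridised to Affymetrix Human Exon 1.0 ST arrays.

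Most human genes make several transcripts by skipping or including exons, by starting at different promoters or by ending at different sites. Tat-SF1, encoded by HTATSF1, is known as a cofactor of transcription elongation that also contacts the U2 snRNP, the part of the spliceosome that recognises the branch point of an intron. An exon array reads each transcript with many small groups of probes, called probe sets, that usually lie within 1 exon each. A probe set that moves against the others of its gene therefore reports on part of the gene's transcripts. Which exon each probe set covers was not analysed here, and the number of a probe set is taken as its place along the gene without a check.

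HTATSF1 itself had gene values between 8.11 and 8.29 on the knockdown arrays and between 8.32 and 8.63 on the controls, on the log2 scale. The 3000 brightest genes of each array averaged 9.18 to 9.30 in knockdown and 9.27 to 9.38 in control. The names of 4 of the 6 knockdown arrays (shRNA A replicate 3 and all of shRNA B) and of 0 of the 5 controls end in a suffix whose meaning the labels do not give. GFP shRNA replicate 1 and shRNA B replicate 1 were the 2 extremes along the leading principal component of gene values. Among markers of the line, VIM, KRT8, KRT18 and NEFL had control means from 9.05 to 10.02, as medians over all probe sets listed for the gene, dim ones included, while NES (7.85) and NEFM (7.92) lay near the array medians of 7.902 to 7.905. Of the markers of blood, fibroblast, endothelial, hepatocyte and carcinoma cells, EPCAM (8.78) and KRT19 (8.18) were above 8 and the others lay between 7.66 and 7.94, on the same measure.

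The quantity followed here is the splicing index, the log2 value of a probe set minus the gene value, which is the median of the gene's probe sets that passed on the same array. Fewer cells of a type and less RNA per cell cannot be told apart in such bulk samples, and the splicing index shows unequal change within a gene, not which part changed. In the pooled comparison, which called 0.00317% of the probe sets tested, the adjusted p was 0.038 for each of the 7 (limma, Benjamini-Hochberg over all probe sets). In the direction of lower splicing index it called 6 (0.00272%), and in the direction of higher it called 1, that of SKIC3 (0.000453%). The last inside the threshold was that of PRELID3B, and the first outside were 3407565 of UHRF1, with a difference of 0.63, and 3864451 of XRCC1, with 0.27 (both with an adjusted p of 0.0597, limma). The calls rested on a narrow margin, since leaving out any 1 array gave between 0 and 9 calls in the 7 genes, 0 with either empty vector array left out. With the array-name suffix described above as a block, none of the 7 was called (adjusted p = 0.355, limma), nor with the replicate number as a block (adjusted p = 0.115, limma).

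**Figure D1:**
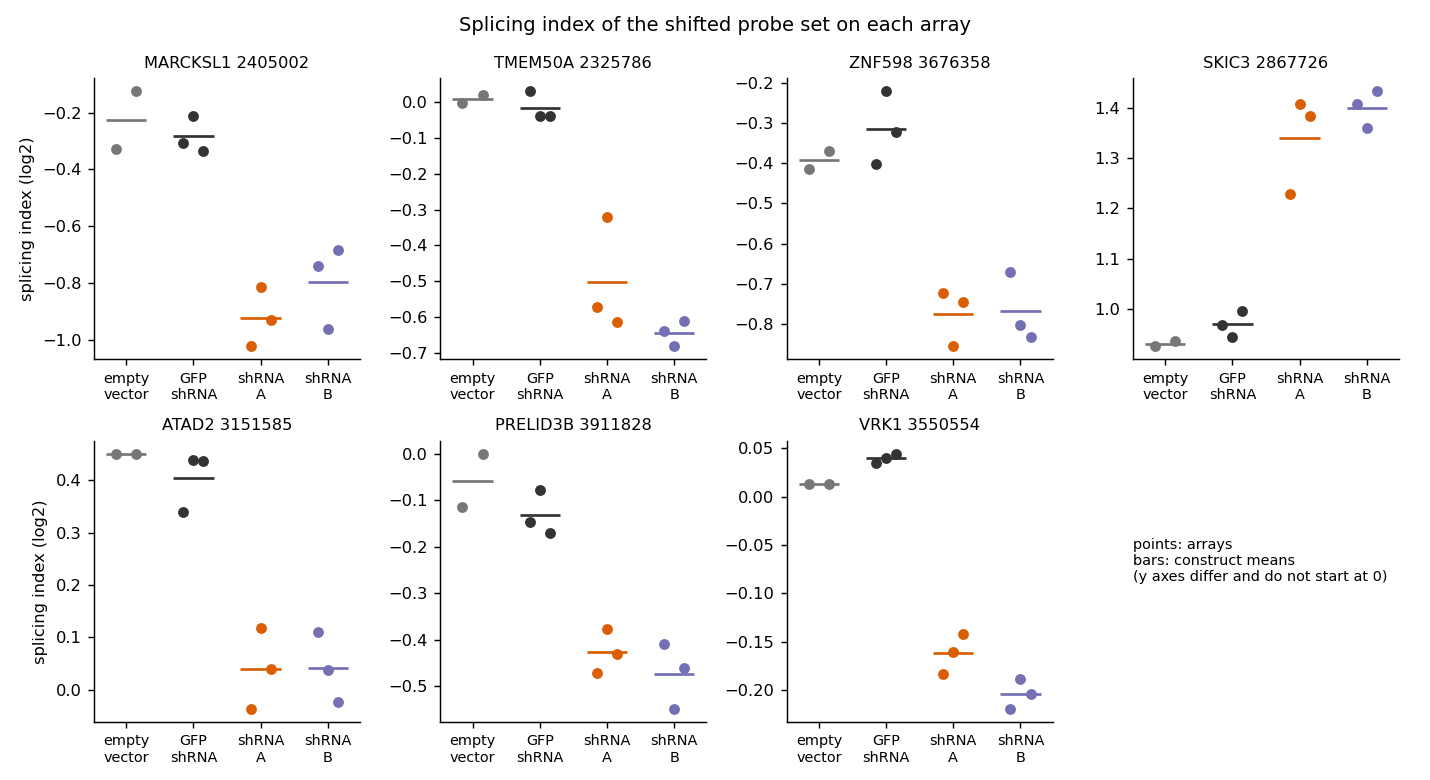
Splicing index (log2) of the shifted probe set of each gene on the 11 arrays. Points are arrays, bars are construct means, and the vertical axes differ between genes. In every gene the 6 arrays of shRNA A and shRNA B lie on 1 side of the 5 control arrays, above them in SKIC3 and below them in the other genes.

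SKIC3 and ZNF598 encode proteins that handle RNA and stalled ribosomes. SKIC3 is the scaffold of the SKI complex, a helicase assembly that feeds RNA into the cytoplasmic exosome for decay. Its probe set 2867726 was the only one of the 7 with a higher splicing index after knockdown. Its log2 values were 10.02 and 9.86 with the empty vector and 10.02, 10.04 and 10.17 with the GFP shRNA. They were 10.31, 10.27 and 10.60 with shRNA A and 10.26, 10.47 and 10.40 with shRNA B. Every knockdown array was thus above every control before any gene value was subtracted. Signal above the array median, taken as background, was 137% of control.

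The gene value of SKIC3 was 9.07 ± 0.093 (SD, n = 5) in control and 9.02 ± 0.14 (SD, n = 6) in knockdown, and the groups overlapped. The splicing index of 2867726 was 0.93 and 0.94 with the empty vector and 0.97, 0.94 and 1.00 with the GFP shRNA. It was 1.23, 1.41 and 1.38 with shRNA A and 1.41, 1.36 and 1.43 with shRNA B. The difference from control was 0.39 with shRNA A, 0.45 with shRNA B and 0.42 over both (95% interval 0.32 to 0.51).

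The shifted probe set was not far out of line along SKIC3. Of 48 probe sets 47 passed, and 2867726 was the 19th of them in numerical order. Its 46 companions differed by between -0.18 and 0.36, and 36 of them were higher and 10 lower. The next highest, 2867720, had a difference of 0.36, so that the shift was 1.15 times the next, but the groups overlapped there, with splicing indices from -0.69 to -0.24 in control and -0.42 to 0.15 in knockdown. With shRNA A alone 2867720 differed by more (0.46) than 2867726 (0.39), and with shRNA B by less (0.26 against 0.45). Its neighbours in number, 2867723 (0.00) and 2867727 (0.06), also overlapped between the groups. Besides 2867726 itself, 2867731 was the only probe set of SKIC3 with groups apart (0.17, control 1.16 to 1.30, knockdown 1.33 to 1.53).

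ZNF598 is a ubiquitin ligase that recognises collided ribosomes and marks proteins of their small subunit. Its probe set 3676358 fell to the level of dim probe sets after knockdown. The log2 values were 8.19 and 8.15 with the empty vector and 8.15, 8.43 and 8.21 with the GFP shRNA. They were 7.72, 7.65 and 7.57 with shRNA A and 7.83, 7.66 and 7.68 with shRNA B. All 6 knockdown arrays were thus below the array median, so that no signal above background was left to compare, and all 5 controls were above it. The controls themselves held 60.9 ± 26.2 units (SD, n = 5) of signal above the median, so the level was low in both groups.

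The splicing index of 3676358 was -0.41 and -0.37 with the empty vector and -0.40, -0.22 and -0.32 with the GFP shRNA, against -0.72, -0.86 and -0.74 with shRNA A and -0.67, -0.80 and -0.83 with shRNA B. The difference was -0.43 with shRNA A and -0.42 with shRNA B, as measured. Probe set 3676358 passed the filter on dim signal through the controls alone, and with the knockdown values not above the array median these differences are no exact sizes. The gene value was 8.57 ± 0.057 (SD, n = 5) in control and 8.46 ± 0.076 (SD, n = 6) in knockdown. It too was lower on every knockdown array than on every control, if only just. The lowest control was 8.5185 and the highest knockdown array 8.5123, and the difference of -0.11 did not pass over all genes (limma, adjusted p = 0.268).

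ZNF598 had the largest share of probe sets left out. Of 26 probe sets 14 passed, 10 were too dim and the others lacked an estimate on some array. The other 13 that passed differed by between -0.23 (3676380) and 0.20 (3676359), with groups that overlapped in all of them. The neighbours in number, 3676357 (0.09) and 3676359, lay on the other side of 0. The last probe set, 3676386, took extreme values. Its log2 value was 6.58 on empty vector replicate 2 and 6.50 on shRNA A replicate 3, and between 10.48 and 11.81 on every other array.

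**Figure D2:**
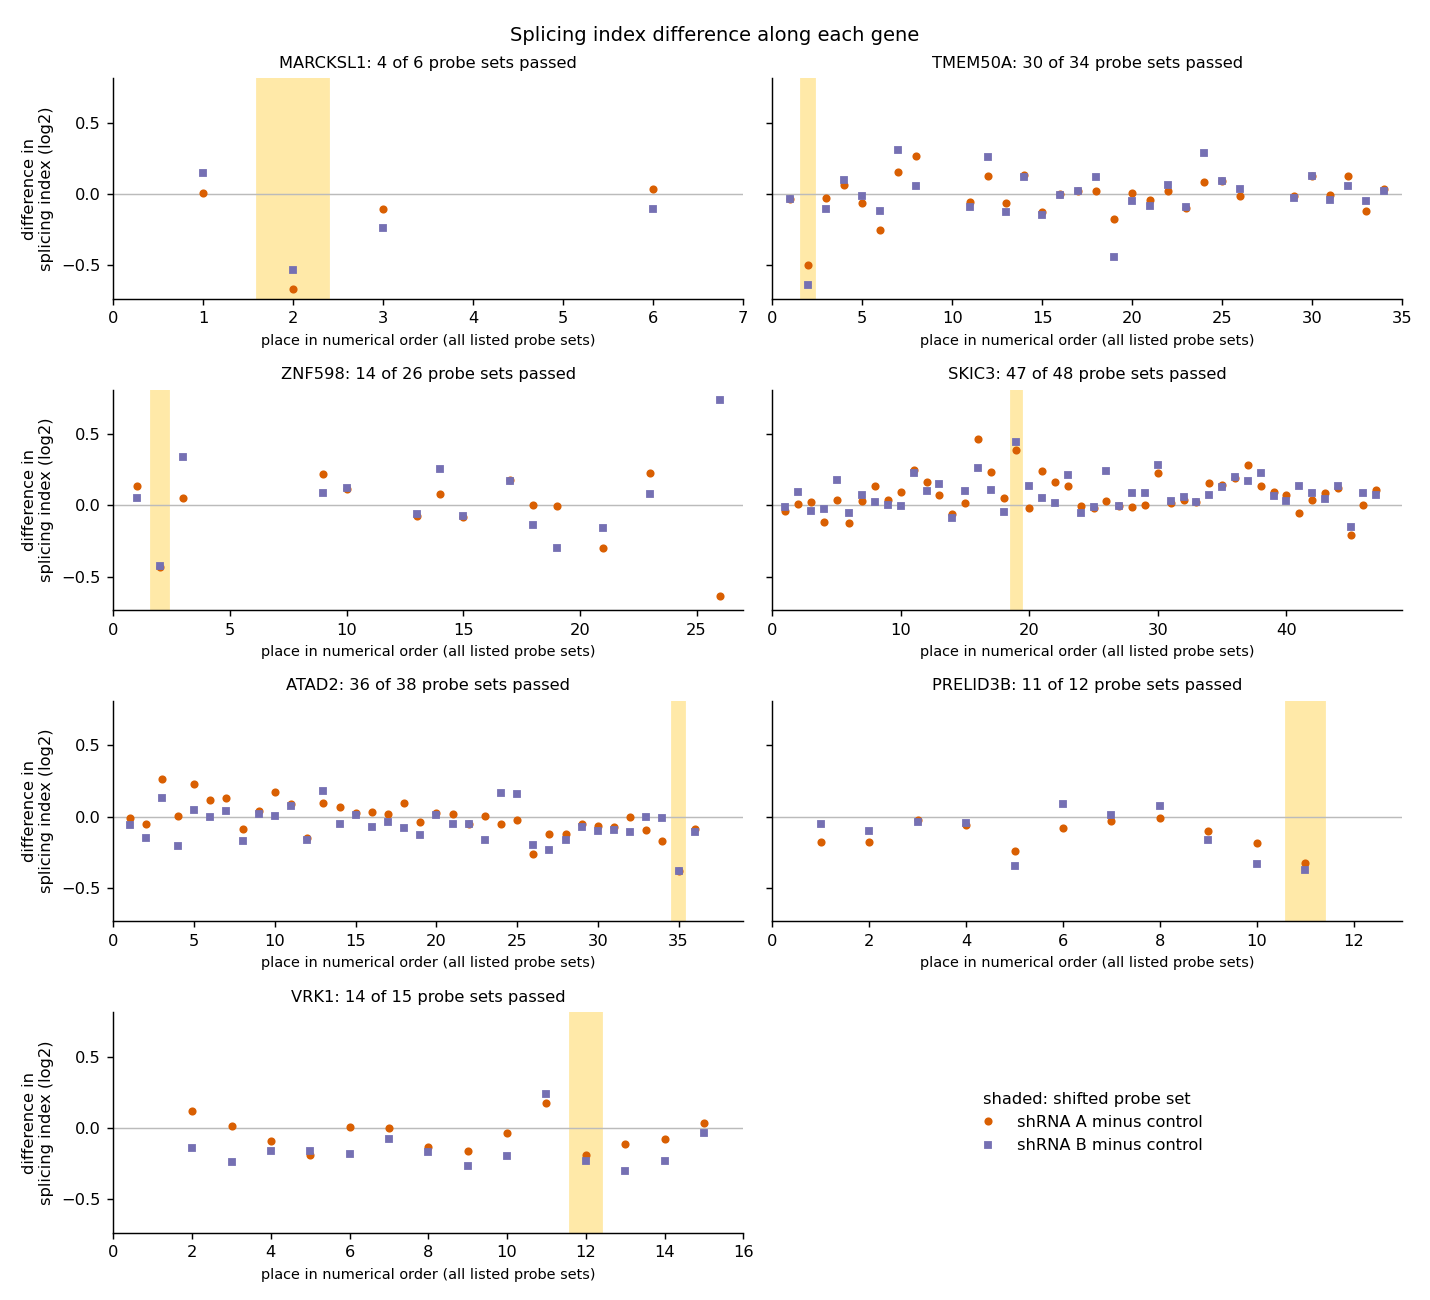
Difference in splicing index (log2) from the control mean for every probe set that passed, in numerical order, with shRNA A as circles, shRNA B as squares and the shifted probe set shaded. The shift is the lowest point of both hairpins in MARCKSL1, TMEM50A and ATAD2, is close to the next probe set in SKIC3 and PRELID3B, and is matched by others in VRK1. In SKIC3 the shRNA A point of 2867720 lies above that of the shifted probe set. In ZNF598 the separated pair at the right end is 3676386, whose shRNA A point (-0.63) lies below the shift.

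ATAD2 and VRK1 encode proteins of the nucleus. ATAD2 is an ATPase with a bromodomain, a fold that binds acetylated histones, and acts as a coactivator of transcription. Its probe set 3151585 lost close to its whole excess over the gene value. The log2 values were 8.99 and 8.96 with the empty vector and 9.25, 9.04 and 9.04 with the GFP shRNA, against 8.50, 8.72 and 8.63 with shRNA A and 8.65, 8.75 and 8.71 with shRNA B. The groups did not overlap, and the signal above the array median was 56.5% of control. The gene value was 8.63 ± 0.16 (SD, n = 5) in control and 8.62 ± 0.086 (SD, n = 6) in knockdown.

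The splicing index of 3151585 was 0.45 on both empty vector arrays and 0.34, 0.44 and 0.44 with the GFP shRNA. It was -0.04, 0.12 and 0.04 with shRNA A and 0.11, 0.04 and -0.02 with shRNA B, so the knockdown arrays scattered around the gene value. The difference was -0.38 for each shRNA (pooled 95% interval -0.46 to -0.30). The lowest control, GFP shRNA replicate 1, was the array on which the gene value of ATAD2 was highest (8.91).

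Along ATAD2, 36 of 38 probe sets passed and the shifted one was the 35th. The others differed by between -0.23 (3151574) and 0.20 (3151539), the groups overlapped in all 35 of them, and the shift was 1.67 times the next in its direction. The lower differences collected at the high-numbered end of the gene. All 11 probe sets from 3151574 to 3151587 were lower, with a median of -0.09, also without the shifted one (10 probe sets, median -0.09). Of the 25 before them 11 were lower and 14 higher, with a median of 0.01. That stretch was chosen after its values were seen, and its probe sets share the gene value that was subtracted. Beside the shifted probe set, 3151584 had -0.09 and 3151587 had -0.10.

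VRK1 is a protein kinase that phosphorylates histone H3 and BANF1, a protein that ties chromatin to the nuclear envelope. Its probe set 3550554 had the smallest shift of the 7, and the data did not set it apart from the rest of its gene. The log2 values were 8.97 and 8.88 with the empty vector and 9.20, 8.79 and 9.00 with the GFP shRNA. They were 8.71, 8.72 and 8.77 with shRNA A and 8.69, 8.89 and 8.88 with shRNA B. The groups overlapped on this scale, where the difference was -0.19. The signal above the array median was 76.0% of control.

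The splicing index of 3550554, by contrast, had a narrow spread. It was 0.01 on both empty vector arrays and 0.03, 0.04 and 0.04 with the GFP shRNA, against -0.18, -0.16 and -0.14 with shRNA A and -0.22, -0.19 and -0.20 with shRNA B. The difference was -0.21 (95% interval -0.26 to -0.16), and it was -0.42 when the probe set was left out of its own gene value. The gene value of VRK1, 8.94 ± 0.15 (SD, n = 5) in control and 8.96 ± 0.096 (SD, n = 6) in knockdown, is the mean of the 2 middle ones of 14 probe sets. The shifted probe set was 1 of these 2 on 9 of the 11 arrays, and the probe set before it, 3550547, was on 10. On the 8 arrays where both were, their splicing indices were of equal size and opposite sign by construction, which ties the 2 values to each other. With 3550554 left out, 3550547 alone is the gene value on these 8 arrays. The -0.42 is therefore mostly the gap between these 2 probe sets.

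The neighbour 3550547 moved the other way. Its splicing index ran from -0.05 to -0.01 in control and from 0.14 to 0.22 in knockdown, a difference of 0.21, with an adjusted p just outside the threshold (0.0597, limma). Its log2 value was 8.91 in control and 9.14 in knockdown. With a gene value from the other 12 probe sets, an alternative chosen after seeing the data, the gene value changed by -0.14, the groups overlapped for 3550554 (difference -0.05) and they stayed apart for 3550547 (difference 0.37). The direction of the gene value thus turned from 0.02 to -0.14.

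Along VRK1, 14 of 15 probe sets passed, and 11 of them had a lower log2 value in knockdown and 3 a higher one. In splicing index 12 of the other 13 were lower. The lowest of them, 3550545 with -0.21, matched the shifted probe set (ratio 0.99), as did the one after it in number, 3550562, also with -0.21. In both of these the groups overlapped. Of 3550547 and 3550554, the former alone had its groups apart with either gene value.

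**Figure D3:**
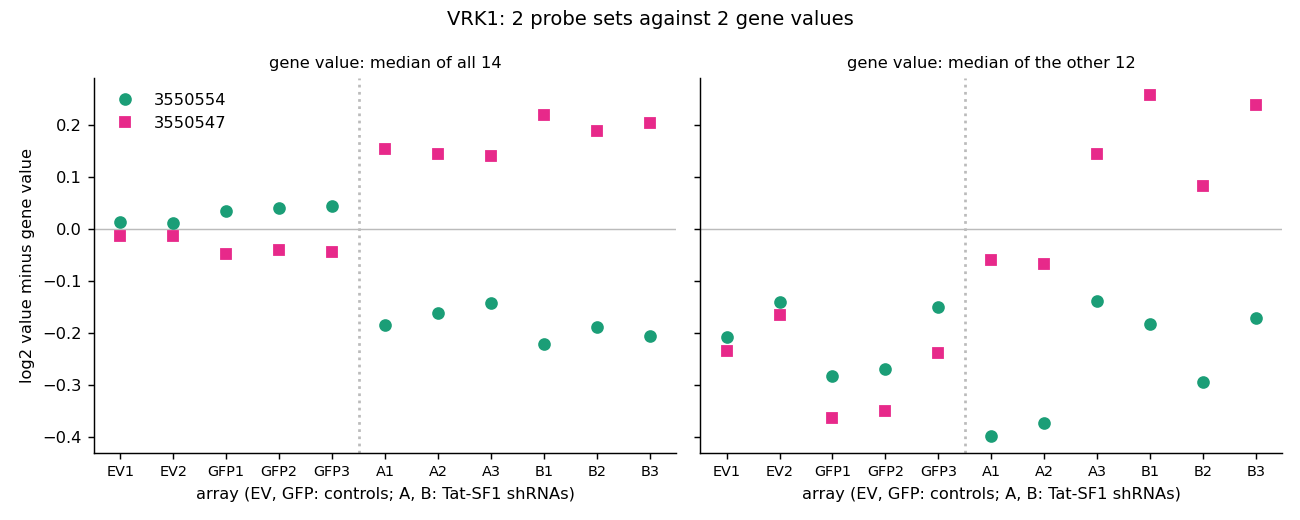
Log2 value of VRK1 probe sets 3550554 (circles) and 3550547 (squares) minus the gene value on each array, with the gene value taken from all 14 probe sets (left) or from the other 12 (right). On the left the points mirror each other around 0 in most arrays. On the right the controls and knockdown arrays overlap for 3550554 and stay apart for 3550547.

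MARCKSL1, TMEM50A and PRELID3B encode proteins of the cell cortex, of membranes and of mitochondria. MARCKSL1 is a substrate of protein kinase C that binds actin filaments and calmodulin at the plasma membrane. Its probe set 2405002 had the largest shift. The log2 values were 10.28 and 10.34 with the empty vector and 10.25, 10.41 and 10.26 with the GFP shRNA. They were 9.73, 9.70 and 9.68 with shRNA A and 9.87, 9.63 and 10.06 with shRNA B. All knockdown arrays were below all controls, and the signal above the array median was 62.6% of control (57.7% in shRNA A arrays, 67.4% in shRNA B arrays).

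The gene value of MARCKSL1 was 10.57 ± 0.062 (SD, n = 5) in control and 10.64 ± 0.09 (SD, n = 6) in knockdown. The splicing index of 2405002 was -0.33 and -0.12 with the empty vector and -0.31, -0.21 and -0.33 with the GFP shRNA. It was -1.02, -0.82 and -0.93 with shRNA A and -0.74, -0.96 and -0.68 with shRNA B. The difference from control was -0.66 with shRNA A, -0.54 with shRNA B and -0.60 over both (95% interval -0.74 to -0.46).

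MARCKSL1 has 6 probe sets, of which 4 passed and the others lacked an estimate on some array. The other 3 differed by 0.08 (2405001), -0.17 (2405003) and -0.03 (2405006), so that the shift was 3.53 times the next, the widest margin of the 7 genes. The groups overlapped in each of these 3. With so few probe sets the shifted one entered the middle pair of the gene value on 3 arrays, all of them controls. Without it in the gene value the difference was -0.68, but the gene value is then 2405001 alone, which itself rose by 0.08. On the knockdown arrays 2405001 and 2405006 form the middle pair. Their splicing indices there are of equal size and opposite sign by construction, which ties both values to each other.

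TMEM50A is a small membrane protein of little-known function. Its probe set 2325786 had a difference near that of MARCKSL1. The log2 values were 9.30 and 9.21 with the empty vector and 9.21, 9.22 and 9.27 with the GFP shRNA. They were 8.66, 8.85 and 8.73 with shRNA A and 8.39, 8.69 and 8.68 with shRNA B. The groups were well apart, and the signal above the array median was 45.9% of control (51.9% in shRNA A arrays, 39.8% in shRNA B arrays).

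The gene value of TMEM50A was 9.25 ± 0.061 (SD, n = 5) in control and 9.24 ± 0.13 (SD, n = 6) in knockdown. The controls lay close to the gene value, with splicing indices of -0.0028 and 0.02 for the empty vector and 0.03, -0.04 and -0.04 for the GFP shRNA. With shRNA A the splicing index was -0.57, -0.32 and -0.61, and with shRNA B it was -0.64, -0.68 and -0.61. The difference from control was -0.50 with shRNA A, -0.64 with shRNA B and -0.57 over both (95% interval -0.69 to -0.44). The weakest knockdown array was shRNA A replicate 2.

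Of 34 probe sets of TMEM50A 30 passed, and their differences ran from -0.31 to 0.23 besides the shifted one, 14 higher and 15 lower. The neighbours in number, 2325785 (-0.04) and 2325790 (-0.07), overlapped between the groups. The probe set numbers fall into 2 runs of 17, from 2325785 to 2325814 and from 2325945 to 2325966. The next largest fall in the gene, 2325946 with -0.31, has the same place in the second run as the shifted probe set has in the first. Its splicing index was -0.59 and -0.02 with the empty vector, -0.47, -0.33 and -0.38 with the GFP shRNA, -0.71, -0.49 and -0.41 with shRNA A and -0.83, -0.95 and -0.62 with shRNA B, so the groups overlapped.

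The first 8 probe sets of both runs were then set side by side in order, a pairing chosen after seeing the values. Their differences had a Pearson correlation of 0.92 over the 8 pairs and of 0.75 without the pair that holds the shifted probe set. The highest difference in the gene, 0.23 for 2325801, was at place 7 of the first run, and place 7 of the second, 2325954, had 0.18. All of these differences share the arrays and the gene value, and whether the runs measure the same sequence was not analysed here. With the gene value taken from the first run, also chosen after seeing the data, the shift of 2325786 was -0.56.

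**Figure D4:**
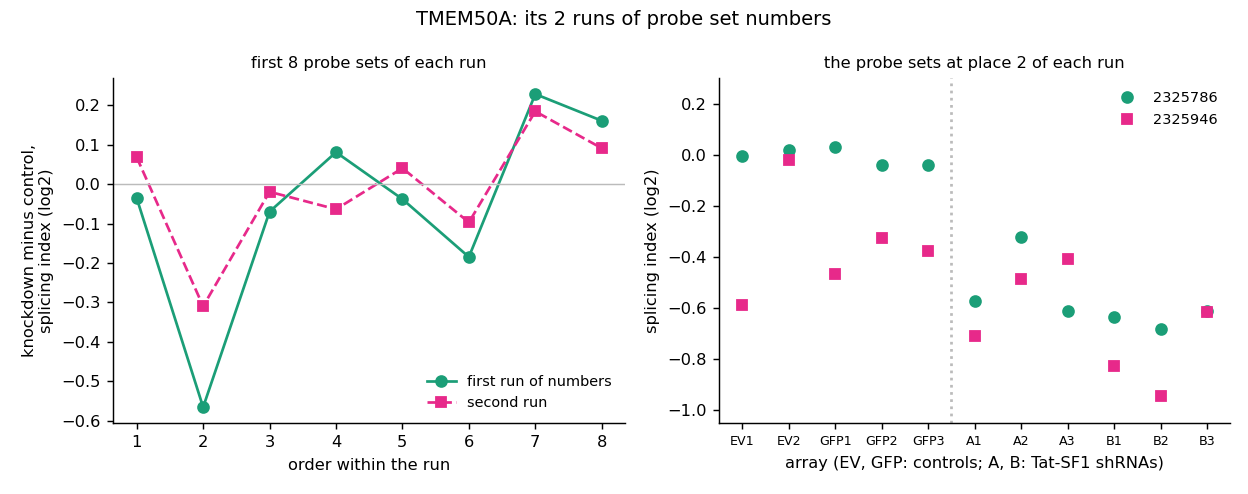
TMEM50A. Left, knockdown minus control difference in splicing index (log2) of the first 8 probe sets of each run of numbers, by order in the run. Right, splicing index of the probe sets at place 2 of the runs on each array. Both runs have their lowest difference at place 2, and only in the first are the controls and the knockdown arrays apart.

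PRELID3B belongs to a family that carries phospholipids between the membranes of mitochondria together with TRIAP1. Its probe set 3911828 shifted down relative to a gene value that was itself higher in knockdown. The log2 values were 9.28 and 9.42 with the empty vector and 9.36, 9.19 and 9.21 with the GFP shRNA. They were 9.15, 9.08 and 9.13 with shRNA A and 9.00, 9.14 and 9.23 with shRNA B. On this scale the groups overlapped, the difference was -0.17, and the signal above the array median was 81.7% of control.

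The gene value of PRELID3B was 9.40 ± 0.083 (SD, n = 5) in control and 9.57 ± 0.12 (SD, n = 6) in knockdown, a difference of 0.18 that did not pass over all genes (limma, adjusted p = 0.22). The splicing index of 3911828 was -0.12 and 0 with the empty vector, where on the second array the probe set was the gene value itself, and -0.15, -0.08 and -0.17 with the GFP shRNA. It was -0.47, -0.38 and -0.43 with shRNA A and -0.41, -0.55 and -0.46 with shRNA B. The difference from control was -0.33 with shRNA A, -0.37 with shRNA B and -0.35 over both (95% interval -0.43 to -0.27). Of this the probe set's own log2 value gave -0.17 and the gene value the rest.

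In PRELID3B 11 of 12 probe sets passed, and the shifted one was the last of them. In log2 value 8 of the 11 were higher in knockdown, by a median over all 11 of 0.06, less than the 0.18 of the gene value. The next lowest splicing index difference, -0.30 for 3911819, was close to the shift (ratio 1.18), but its groups overlapped, from 2.02 to 2.47 in control and from 1.62 to 2.21 in knockdown. The neighbour before the shifted probe set, 3911826, also had its groups apart, if only just, with the lowest control at -1.0275, the highest knockdown array at -1.0303 and a difference of -0.26. Both probe sets with groups apart in PRELID3B thus lay next to each other at the high-numbered end.

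Over the 7 genes, the other 149 probe sets that passed held 73 lower and 76 higher differences between knockdown and control. Limma called 0 of them, and 31 (20.8%) had an unadjusted p under 0.05, where 11.8% of all probe sets tested did. The groups did not overlap in 3 of them (2.01%), those named in SKIC3, PRELID3B and VRK1, where 1.45% of all probe sets did not. Nothing is read from these shares, since the same contrast chose the genes. The gene values of the 7 genes differed by between -0.11 (ZNF598) and 0.18 (PRELID3B), with limma's adjusted p from 0.22 to 0.95. The 5 shifted probe sets of MARCKSL1, TMEM50A, ZNF598, SKIC3 and ATAD2 had groups apart also in plain log2 values, and those of PRELID3B and VRK1 did not. The choice of the genes favours groups apart on this scale too. The share of all probe sets with groups apart in log2 values is not given here.

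The comparison of shRNA B with shRNA A asked whether the 2 hairpins moved the same probe sets to the same extent. A difference between the hairpins adds to the spread in the pooled test that chose the 7 shifted probe sets, so small values are favoured by the choice and are given without a test. TMEM50A had the largest difference between them, a value of -0.14 for B minus A (95% interval -0.28 to 0.00). In MARCKSL1 shRNA B was higher by 0.13 (interval -0.06 to 0.31), and in SKIC3 by 0.06 (interval -0.07 to 0.19). The others were 0.01 in ZNF598 (both hairpins below the array median), 0.00 in ATAD2 (interval -0.12 to 0.12), -0.05 in PRELID3B (interval -0.16 to 0.07) and -0.04 in VRK1 (interval -0.11 to 0.02). The intervals describe the spread and are not read against 0.

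Among the other 149 probe sets of the 7 genes limma called 0 between shRNA B and shRNA A, as it did over all probe sets (0%). Of the 149, 8 (5.37%) had an unadjusted p under 0.05, against 5.52% of all probe sets. The smallest adjusted p, 0.857, belonged to 3550536 and 3550537 at the low-numbered end of VRK1, which were lower with shRNA B by -0.26 and -0.25 and were picked out after their values were seen. The gene values of the 7 genes differed between the hairpins by between -0.08 (SKIC3) and 0.13 (VRK1). Limma called none of these 7 or of all 14496 genes (0%), none of the 7 had an unadjusted p under 0.05, and 4.42% of all genes did.

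The GFP shRNA and the empty vector differ in whether a hairpin is made, and for the shifted probe sets their difference too adds to the spread in the test that chose them. The 7 differed by between -0.07 (PRELID3B) and 0.08 (ZNF598), given without a test. The interval was widest for MARCKSL1 (-0.27 to 0.16) and narrowest for VRK1 (-0.05 to 0.10). Limma called 0 of the other 149 probe sets and 0% of all, and 6 of the 149 (4.03%) had an unadjusted p under 0.05, against 4.48% of all. In gene values ATAD2 had the largest difference, 0.18 (interval -0.02 to 0.38, limma, adjusted p = 0.947). Limma called none of the 7 genes and 0.0069% of all, with 4.48% of all genes and none of the 7 at an unadjusted p under 0.05.

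**Figure D5:**
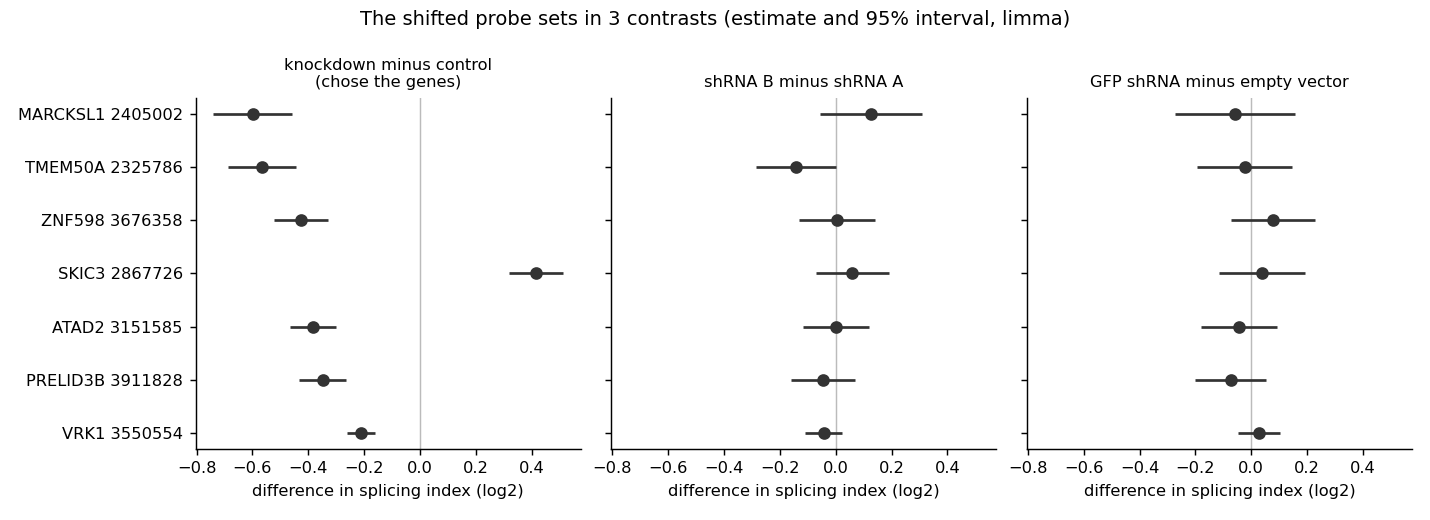
Difference in splicing index (log2) of the 7 shifted probe sets with its 95% interval from limma, for knockdown minus control (which chose the genes), shRNA B minus shRNA A, and GFP shRNA minus empty vector. The choice of the genes favours small values in the other 2 contrasts, so their intervals are a description and not a test.

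The suffix in the array names went with the knockdown. All shRNA B arrays carry it, so only replicate 3 of shRNA A against replicates 1 and 2 informs on it apart from the hairpin. With the suffix as a block, the difference of shRNA B from shRNA A in TMEM50A was -0.03 in place of -0.14, and that in MARCKSL1 was 0.14 in place of 0.13; the part of the suffix was not otherwise tested. The knockdown differences were also taken over arrays without it, which leaves replicates 1 and 2 of shRNA A against the 5 controls. They were -0.66 in MARCKSL1, -0.44 in TMEM50A, -0.41 in ZNF598, 0.36 in SKIC3, -0.38 in ATAD2, -0.32 in PRELID3B and -0.20 in VRK1. These arrays are among those that chose the probe sets, so their direction is favoured by the choice. Limma called none of the 7 in that setting (adjusted p from 0.446 to 0.458), where they were among 25 probe sets of the 7 genes with an unadjusted p under 0.05.

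Partners, paralogs and pathway members of the 7 genes were examined at the level of the gene, from lists drawn up by known function. Of 56 such genes 53 were measured. Limma called 0 of the 53, against 28 lower (0.193%) and 5 higher (0.0345%) of all genes. Those 33 calls over all genes became 10 with the replicate number as a block and 0 with the suffix as a block, and none of the partners was called in either. The difference was below 0 in 42 and above 0 in 11, with a median of -0.05, beside 9750 below and 4746 above and a median of -0.02 over all genes. An unadjusted p under 0.05 was found in 14 of the 53 and in 15.2% of all genes. The share of all genes with groups apart in gene values is not given here. Groups apart in single genes are therefore a description, from which nothing is read about the partners. The bright genes of the knockdown arrays averaged lower, as given above, and the part of this in the partners' values was not tested.

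In the pathway of ZNF598, 2 of 15 measured genes were higher and 13 lower. EDF1, which recruits factors to collided ribosomes, had 10.45 ± 0.08 (SD, n = 5) in control and 10.23 ± 0.068 (SD, n = 6) in knockdown, with all knockdown arrays below all controls, but did not pass (limma, adjusted p = 0.121). EIF4E2, a cap-binding protein that represses the translation of faulty messages, differed by -0.19 with groups that overlapped (limma, adjusted p = 0.0741). TCF25, also in this list, differed by -0.18 with all knockdown arrays below all controls (limma, adjusted p = 0.0851). The helicase subunit ASCC3, which pulls collided ribosomes apart, differed by -0.04, and the ligase LTN1, which marks stalled nascent chains, by 0.02.

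In the SKI complex and the exosome 4 of 13 measured genes were higher and 9 lower. The nuclear exosome nuclease EXOSC10 had the largest difference, from 9.42 ± 0.11 (SD, n = 5) to 9.22 ± 0.11 (SD, n = 6), with the groups apart and an adjusted p of 0.168 (limma). EXOSC2, a cap subunit of the exosome, differed by -0.14, as did SKIC2, the helicase that SKIC3 holds. SKIC8, the other subunit of the SKI complex, differed by -0.05 and HBS1L by 0.01.

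Among the paralogs of VRK1 and the nuclear envelope proteins set beside it all 6 were lower, where 9750 of all 14496 genes were. EMD, the inner nuclear membrane protein emerin, had the lowest adjusted p of the 53, at 0.0607 (limma), with 9.62 ± 0.064 (SD, n = 5) in control, 9.35 ± 0.091 (SD, n = 6) in knockdown and no overlap. BANF1, the kinase's substrate, differed by -0.14, and the paralogs VRK2 and VRK3 by -0.01 and -0.04. Among the bromodomain genes set beside ATAD2 all 5 measured were lower, none by more than BRD2 (-0.09), and the paralog ATAD2B differed by 0.00.

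Among the genes of mitochondrial lipid transfer and synthesis 3 of 10 were higher. PRELID1, which carries phosphatidic acid with TRIAP1, differed by -0.22 (limma, adjusted p = 0.173) and TRIAP1 by 0.12. The closest relative of PRELID3B, PRELID3A, was near the array median (8.04) and differed by 0.00. MARCKS, the larger relative of MARCKSL1, differed by -0.06, BASP1, another protein of the cell cortex, by -0.23 (limma, adjusted p = 0.16), and TMEM50B by 0.13 (limma, adjusted p = 0.289), each with groups that overlapped.

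The probe sets of other genes most like the 7 shifted ones were sought by the Pearson correlation of the splicing index over the 11 arrays after construct means were subtracted. Among 220977 candidates for each, the 2 highest correlations lay between 0.979 and 0.995. The most alike were 2995194 of PLEKHA8 for TMEM50A (0.995), 3883423 of ERGIC3 for ATAD2 (0.992) and 3809645 of FECH for SKIC3 (0.988). The others were led by 3259463 of ZNF518A for VRK1 (0.984), 3340704 of UVRAG for PRELID3B (0.987), 2347062 of CCDC18 for ZNF598 (0.987) and 2423849 of ARHGAP29 for MARCKSL1 (0.983). The probe sets named here differed by between -0.05 (ARHGAP29) and 0.06 (ERGIC3) between knockdown and control. Of those second in likeness, the largest difference was 0.12 (BRCC3, for ATAD2). By construction the likeness concerns only the spread within constructs. It is the highest of very many values over few arrays, which all share the same libraries.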

How the data were processed

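For each of 1399022 exon probe sets the authors deposited a log2 value per array (11 arrays). Per the labels' protocols, RNA was labelled by Affymetrix's assay for sense targets of whole transcripts. Software, normalization and genome build of these deposited log2 values: not given in the sources used here. The array number limits precision. Between 13190 and 15431 probe sets per array lacked an estimate.

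Probe sets were assigned through a probe annotation (a single gene symbol for 355799, several for 15195, 1028028 not listed there). Symbols were updated through RefSeq synonyms. To pass, a probe set needed a single symbol, estimates on all arrays and a mean of at least 7.91 (the median over the table); a gene needed at least 4. Differences were tested with limma (lmFit, eBayes with trend) at an adjusted p under 0.05 over all probe sets or genes, with 2 levels (pooled contrast), 3 (shRNA B minus A) or 4 (control constructs). R 4.3.3, limma 3.58.1 and the data.table package (1.17.8) were used, and the test was tried on simulated data. In each gene the named probe sets were the shifted one, its neighbours in number and the largest rise and fall, and of partners those that passed or the largest changes by group. The partners TCF25, HBS1L, SKIC2, SKIC8, ASCC3, LTN1, the VRK, PRELID and ATAD2 paralogs and further probe sets were named after their values were seen. Members and lists, partners included, were chosen with earlier results of these data known.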

Additional observations from a re-analysis of the deposited data

Results flagged for a closer look

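In 28 sets of control or knockdown arrays (7 genes, splicing index and gene value), 5 values stood apart from the others of their set by Dixon's test at the 95% level, which chance gives in about 1 in 20 sets. GFP shRNA replicate 1 had a splicing index of 0.34 for ATAD2 3151585, where the other controls had 0.44 to 0.45. The same array had an ATAD2 gene value of 8.91, where the others had 8.51 to 8.60. These flags are linked, since the gene value is subtracted to give the splicing index. For TMEM50A 2325786, shRNA A replicate 2 had a splicing index of -0.32, against -0.68 to -0.57 on the other knockdown arrays. For SKIC3 2867726, shRNA A replicate 1 had a splicing index of 1.23, against 1.36 to 1.43. The ZNF598 gene value was 8.32 on shRNA A replicate 3, against 8.44 to 8.51 on the others.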

How the results depend on the processing

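The pooled count of called probe sets in the 7 genes, 7 as reported, rested on a narrow margin. It fell to 1 with the mean of the probe sets as gene value, to 3 without the filter on dim probe sets (2 of them shifted probe sets), to 3 with log2 values alone and to 4 without the trend. It was 6 with each probe set left out of its own gene value (5 of them shifted), 5 with a stricter floor and 7 after quantile normalization. It was 0 with the suffix as a block, 0 over the arrays without the suffix, 0 with the replicate number as a block and 1 without both extremes of the first component, GFP shRNA replicate 1 and shRNA B replicate 1 (chosen after seeing the data). Over all probe sets, those of the 7 genes included, the calls were 2 with the mean, 11 without the filter and 74 with log2 values alone. They were 15 with each probe set left out, 19 with the stricter floor and 7 after quantile normalization. Between 20 and 45 probe sets of the 7 genes had an unadjusted p under 0.05 in these settings, with 20 under the suffix block and 37 under the replicate block. Leaving out 1 array gave 0 to 9 calls: 0 without either empty vector array, GFP shRNA replicates 2 or 3, shRNA A replicate 3 or shRNA B replicates 2 or 3, 1 without shRNA A replicates 1 or 2, 4 without shRNA B replicate 1 and 9 without GFP shRNA replicate 1 (7 of them shifted). The differences kept their direction in all 153 recomputed values, as the choice of the genes favours, and 15 moved by more than the spread between replicates. VRK1 ran from -0.42 without itself in the gene value to -0.05 with the gene value of 12 probe sets, and was -0.07 without the filter and -0.11 with the mean. PRELID3B ran from -0.37 to -0.17, MARCKSL1 was -0.42 with the mean, and ZNF598 was lost to the filter under a stricter floor and without 2 of the arrays in turn.

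Limma called 0 probe sets and 0 genes of the 7 between the Tat-SF1 hairpins and between the control constructs in all alternatives run. For the shifted probe sets the choice of the genes favours this. Of the partners limma called 1 with the mean and 1 with a stricter floor, where it called 139 and 130 of all genes. It called 3 partners without the trend, for which the count over all genes is not given here. Whether the replicate numbers pair the arrays cannot be told here. Of 15 pairs with the same number, 5 had a correlation of gene deviations over 0.1, in a range from -0.15 to 0.27. Values for pairs with different numbers, needed for comparison, are not given here. The block left the counts of the partners and of the 2 contrasts inside the groups at 0, and it took the calls over all genes from 33 to 10. Signal over the array median was lowest for ZNF598, with 60.9 units in control.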
